A study of Mus musculus with 2 samples.

Results

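The genes for 8 secreted or cell-surface signals (Fgf9, Bmp3, Bmp5, Wnt7b, Jag1, Sfrp1, Cxcl12 and C1qtnf5) were followed across the cell types of the thick ascending limb (TAL) of the mouse kidney. They are 8 of the 32227 genes counted, and they were chosen by the differences between TAL classes and libraries seen in these same counts, so every difference between classes below is a description with no test. Nuclei came from male NKCC2-INTACT mice of strain B6 (genotype labelled WT, age labelled 12 without a unit), in which tamoxifen switches on the nuclear envelope protein Sun1-sfGFP through a Cre driven by Slc12a1, the gene for the TAL salt transporter NKCC2. Tissue was dissected into a superficial strip (the cortex library) and the rest of the kidney (the medulla library), and GFP-positive nuclei were sorted by flow cytometry and sequenced, 1 library per region. Region and library therefore cannot be told apart, the labels do not say how many animals each library pools, and the intervals given below (95%) cover counting error only.

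The TAL reabsorbs salt and, together with it, calcium and magnesium, and its cells are a mosaic rather than a uniform epithelium. At its end lie the cells of the macula densa (MD), which sense luminal salt and signal to the glomerulus and to renin cells. The signals followed here act mostly on neighbouring cells. FGF9 is a fibroblast growth factor, BMP5 is an activating ligand and BMP3 a largely antagonistic ligand of the bone morphogenetic protein family, WNT7B is a WNT ligand and SFRP1 a secreted protein that binds WNTs, JAG1 is a membrane-bound ligand of Notch receptors, CXCL12 is a chemokine for the receptors CXCR4 and ACKR3, and C1QTNF5 is a secreted protein of the C1q/TNF-related family. In the developing kidney several of these families pattern the nephron and the medulla.

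Barcodes with at least 10 Slc12a1 counts were divided into classes by marker counts. MD nuclei held at least 3 counts of Nos1 plus Pappa2, TAL-β nuclei at least 2 of Tmem52b, TAL-γ nuclei at least 2 of Tmem207 plus Gpc5, and the remainder were TAL-α. This gave 2824 TAL-α, 1493 TAL-β, 248 TAL-γ and 653 MD nuclei in cortex (5218 of 5442 called) and 3776, 571, 3542 and 78 in medulla (7967 of 8121 called). The libraries held 16457300 and 20947211 counts, with medians of 2427 and 2430 per nucleus and 0 shared barcodes. Median counts were lowest in MD nuclei, 1883 in cortex and 1995.5 in medulla, against 2404 to 2780 in the other classes. In each library the summed level of each class's own 6-gene marker list was highest in that class, for example 8095 CPM (counts per 1000000 of a group's total) of MD markers in cortical MD nuclei against at most 748 in the other cortical classes. None of the 6 MD markers was at 0 in either MD group. Cortical TAL-γ nuclei also carried 1961 CPM of the TAL-β list, against 406 in medullary ones, and TAL-α nuclei carried 1400 in cortex and 416 in medulla. The TAL-γ list was 1316 CPM in cortical TAL-γ nuclei and 2277 in medullary ones. The study described TAL-γ cells as exclusive to the medulla. Of the 248 cortical TAL-γ nuclei, 119 held exactly 1 Tmem52b count, just below the TAL-β gate, against 277 of 3542 in medulla. The proximal tubule list of 6 genes summed to 1604 to 3064 CPM in the cortical classes and 297 to 506 in the medullary ones. The distal convoluted tubule list of 3 genes was highest in TAL-β of both libraries. It was 309 CPM against 75.1 in TAL-α of cortex and 169 against 5.12 in medulla. The endothelial list was 199 against 97.8 in cortex and 39.3 against 36.3 in medulla. The part of such RNA in the TAL-β levels was not tested. Counts precede the authors' doublet removal and ambient RNA correction. The MD markers, TAL lists and gate genes were themselves chosen with these libraries in view.

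By summed level Fgf9 was high in TAL-β and cortical TAL-γ, Jag1 in TAL-β and TAL-γ, Bmp3 and Sfrp1 in MD and Cxcl12 in TAL-α. C1qtnf5 was high in medullary TAL-γ, and Bmp5 and Wnt7b in medullary TAL-α and TAL-γ. The shares of nuclei with a Cxcl12 or C1qtnf5 count were not distinguished in these classes from the background read in proximal tubule barcodes. Members are called past 2-fold where at least 20 counts lay in the pair of groups and the ratio of CPM was at least 2 or at most 0.5, whatever its interval. Between TAL-β and TAL-α 5 of the 7 members with enough counts passed in cortex, against 5.00% of 14772 genes, and 6 of 8 in medulla, against 8.25% of 13526. Between TAL-γ and TAL-α 4 of 7 passed in cortex (all genes 10.6%) and 5 of 8 in medulla (all genes 4.33%), and between MD and TAL-α 5 of 7 in cortex (all genes 13.2%) and 3 of 8 in medulla (all genes 26.1%), where another 3 had no MD count. Since the members were chosen on these ratios, nothing follows from the excess over the background share.

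**Figure D1:**
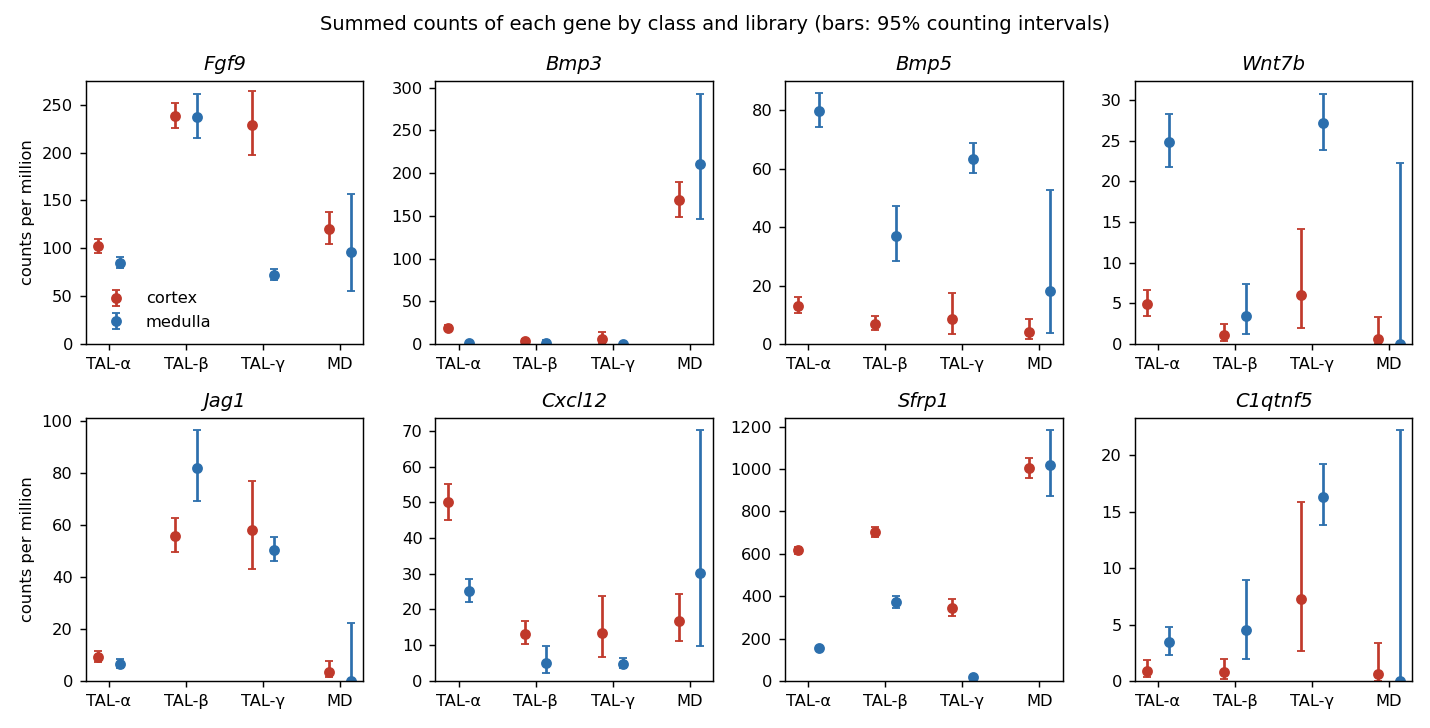
Level in CPM (linear y axis, each panel with its own scale) of each of the 8 genes in TAL-α, TAL-β, TAL-γ and MD nuclei, as summed counts per library (red cortex, blue medulla) with 95% Poisson intervals as bars. Fgf9 and Jag1 stand higher in TAL-β than in TAL-α of both libraries, Bmp3 stands at 169 and 211 in MD, and Bmp5 is higher in medulla than in cortex in TAL-α, TAL-β and TAL-γ.

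Fgf9, a ligand that acts through FGF receptors, was read in both libraries at nearly the same level in TAL-β. In cortex it stood at 102 CPM in TAL-α (815 counts, 95.4 to 109.6), 238 in TAL-β (1247 counts, 225 to 252), 229 in TAL-γ (189 counts, 198 to 264) and 121 in MD (201 counts, 104 to 138). In medulla it stood at 85.2 CPM in TAL-α (799 counts, 79.4 to 91.3), 237 in TAL-β (417 counts, 215 to 261), 72.7 in TAL-γ (658 counts, 67.2 to 78.4) and 96.4 in MD (16 counts, 55.1 to 157). TAL-β exceeded TAL-α 2.33-fold (2.13 to 2.55) in cortex and 2.79-fold (2.47 to 3.14) in medulla, and the medulla to cortex ratio of TAL-β was 0.995 (0.889 to 1.11). The nuclei that passed the TAL-γ gate lay in unlike clusters in the libraries. Of the 248 in cortex, 132 lay in deposited cluster 2, which was 71.3% TAL-β, whereas in medulla 1006, 936 and 420 of 3542 lay in clusters 2, 5 and 7, each mainly TAL-γ. Of the TAL-β marker list, genes picked after their values were seen differed in part. Cadps2, the other gene of that list, was not among those picked. Relative to TAL-α the claudin gene Cldn16 was 1.51 in cortical and 0.913 in medullary TAL-γ. In the same order Pth1r, the parathyroid hormone receptor, was 1.52 and 0.521, and Col5a2 was 1.497 and 0.390. Kcnj10 was alike, 8.09 and 8.24, and Nrxn3 was below TAL-α in both, 0.693 and 0.557. The markers Rbfox1, Ano4 and Prox1 were above TAL-α in both. Rbfox1 was 5.26 and 3.97, Ano4 4.65 and 2.86 and Prox1, of the TAL-γ list, 1.93 and 1.72. For Fgf9 in TAL-γ of cortex the level was 2.24 times (1.90 to 2.63) that of TAL-α, equal to TAL-β within counting error, while in medulla its ratio to TAL-α was 0.853 (0.768 to 0.947), and between these groups from unlike clusters cortex exceeded medulla 3.15-fold (2.67 to 3.71). The part of the TAL-β markers, of the clusters and of position along the cortex to medulla score in this was not tested. Split by Tmem52b, the Fgf9 ratio to TAL-α was 2.03 (1.59 to 2.56) at 0 counts and 2.65 (2.15 to 3.25) at 1 in cortex, and 0.812 (0.726 to 0.908) and 1.62 (1.31 to 1.99) in medulla, where 277 nuclei held 1. The ratios at 0 counts are to TAL-α nuclei also at 0, and those at 1 to all TAL-α nuclei.

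The share of nuclei with an Fgf9 count was 45.7% in cortical and 41.2% in medullary TAL-β, and 20.4% and 16.4% in TAL-α. After each nucleus was thinned to 1000 counts these became 21.8%, 21.2%, 9.53% and 7.85%, so TAL-β stayed above TAL-α at equal depth. Free RNA bears on the lower classes. Barcodes that were not called as nuclei held 128 CPM of Fgf9 in cortex and 88.4 in medulla, at or above the level in TAL-α, whereas 8.14% of 86 cortical and 3.3% of 91 medullary proximal tubule barcodes with at most 2 Slc12a1 counts (medians of 3488 and 4607 counts) held one. MD and TAL-α intervals overlapped in each library, and they are not ranked.

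Jag1, which presents its signal to Notch receptors on the touching cell, was the member with the widest TAL-β to TAL-α gap. In cortex its level was 9.29 CPM in TAL-α (74 counts, 7.29 to 11.7), 55.8 in TAL-β (292 counts, 49.6 to 62.6), 58.2 in TAL-γ (48 counts, 42.9 to 77.1) and 3.60 in MD (6 counts, 1.32 to 7.83). In medulla it was 6.50 CPM in TAL-α (61 counts, 4.98 to 8.35), 82.0 in TAL-β (144 counts, 69.1 to 96.5) and 50.6 in TAL-γ (458 counts, 46.0 to 55.4), and none of the 78 MD nuclei held a count, which allows up to 3.85% of nuclei. TAL-β exceeded TAL-α 6.01-fold (4.64 to 7.87) in cortex and 12.6-fold (9.28 to 17.3) in medulla, and TAL-γ exceeded it 6.26-fold (4.26 to 9.13) and 7.78-fold (5.94 to 10.3). Unlike Fgf9, Jag1 was thus high in TAL-γ of both libraries, with a medulla to cortex ratio of 0.869 (0.645 to 1.20) there. Between TAL-γ and TAL-β of medulla it fell past neither limit, at 0.617 times (0.511 to 0.749), a comparison in which 4 of 7 members passed 2-fold (all genes 10.5%). A Jag1 count was found in 16.0% and 20% of TAL-β nuclei and in 16.1% and 10.9% of TAL-γ nuclei (thinned 4.96%, 7.36%, 4.44% and 4.69%). The shares of 2.02% and 1.30% in TAL-α and 0.919% in cortical MD lie under those of proximal tubule barcodes, 3.49% and 2.20%, and are read as background. Uncalled barcodes held 20.3 and 31.9 CPM.

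Jag1 lies on chromosome 2 (GRCm39, 136923373 to 136958693, minus strand). The 250 bases before its start (chr2:136958694-136958943, minus strand) are shown because Jag1 was high in both TAL-β and TAL-γ. Capitals mark a GC box (GGGCGG, found on either strand in 36.5% of 21284 protein-coding promoters of this length) and a CCAAT box (CCAAT, 36.4%). Its promoter is GC-rich, 63.6% against a median of 53.2%, and neither a TATA box (TATAAA) nor an E-box (CACGTG, in 6.29% of promoters), nor the nuclear receptor motif AGGTCA (13.1%), nor the RBPJ motif GTGGGAA (5.48%), was in this window.
Jag1: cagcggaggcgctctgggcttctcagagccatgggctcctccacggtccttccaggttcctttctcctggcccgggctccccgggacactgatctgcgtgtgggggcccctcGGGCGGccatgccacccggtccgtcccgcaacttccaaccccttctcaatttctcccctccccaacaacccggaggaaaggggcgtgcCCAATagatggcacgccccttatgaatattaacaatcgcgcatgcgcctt
Fgf9, which lies on chromosome 14 (58308004 to 58350316, plus strand), also held GC boxes and a CCAAT box, in a window of 69.2% GC. Unlike that of Jag1, the Fgf9 window (58309423 to 58309672) lies inside the annotated gene and overlaps an exon of it. A match is a description of letters and not a site in use.

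**Figure D2:**
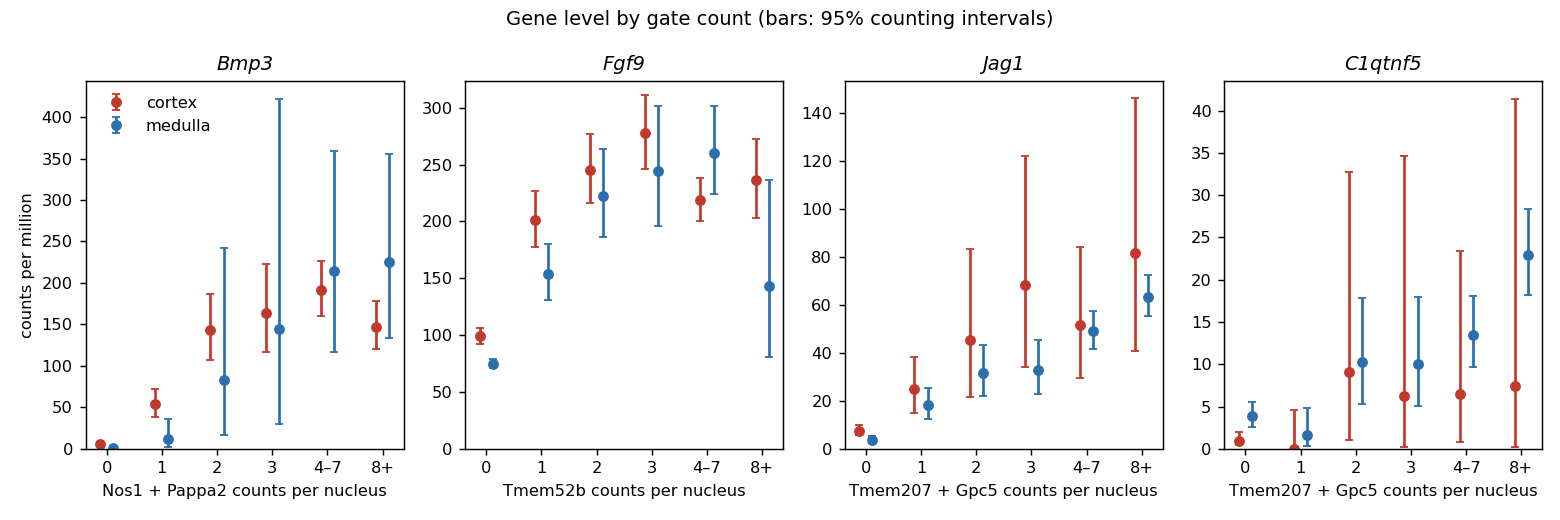
Level in CPM (y axis) of Bmp3, Fgf9, Jag1 and C1qtnf5 against the number of gate counts per nucleus (x axis, binned), with cortex in red, medulla in blue and 95% Poisson intervals as bars. Bmp3 climbs from 6.37 to 164 CPM in cortex between 0 and 3 counts of Nos1 plus Pappa2, and Jag1 in medulla from 3.70 to 31.5 between 0 and 2 counts of Tmem207 plus Gpc5.

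The classes are steps cut from continuous counts. Just outside the TAL-β gate (1 Tmem52b count) Fgf9 stood at 201 CPM in cortex and 154 in medulla, and just inside it (2 counts) at 245 and 222. Jag1 stood at 51.6 and 75.5 outside and 54.5 and 88.6 inside, with overlapping intervals for Jag1 in both libraries and for Fgf9 in cortex. In medulla the Fgf9 intervals did not overlap (131 to 179.9 against 186 to 263), and 277 of the 370 nuclei with 1 count there were TAL-γ. Across the TAL-γ gate Jag1 went from 24.8 to 45.3 in cortex and from 18.1 to 31.5 in medulla. Across the MD gate (2 against 3 counts of Nos1 plus Pappa2) Bmp3 went from 143 to 164 in cortex, and from 82.7 to 145 in medulla, where each side holds 11 nuclei. Few nuclei lay near the Slc12a1 gate, 55 in cortex with 5 to 9 counts and 155 with 10 to 14, and Fgf9 was 141 and 189 CPM in them. In medulla these bins held 5 and 25 nuclei.

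Bmp3 was highest in MD in both libraries. Its level in cortex was 19.1 CPM in TAL-α (152 counts, 16.2 to 22.4), 3.82 in TAL-β (20 counts, 2.34 to 5.91), 6.06 in TAL-γ (5 counts, 1.97 to 14.1) and 169 in MD (281 counts, 149 to 189). In medulla it was 1.92 CPM in TAL-α (18 counts, 1.14 to 3.03), 1.71 in TAL-β (3 counts, 0.352 to 4.99), 0.331 in TAL-γ (3 counts, 0.0683 to 0.968) and 211 in MD (35 counts, 147 to 293). MD nuclei exceeded TAL-α 8.83-fold (7.22 to 10.8) in cortex and 109.8-fold (60.5 to 206) in medulla. TAL-α held 0.101 times (0.0580 to 0.164) the cortical level in medulla, whereas the MD level had a medulla to cortex ratio of 1.25 (0.854 to 1.78), and in MD nuclei 0 of the 4 members with enough counts passed 2-fold between libraries (all genes 15.9%). The medulla library is all tissue below the superficial strip. How deep its MD and TAL-α nuclei lay is not given, so these ratios may compare unlike depths. Of MD nuclei, 29.7% in cortex and 35.9% in medulla had a Bmp3 count (thinned 16.5% and 24.4%) while 0 of 86 and 0 of 91 proximal tubule barcodes had one, which allows up to 3.49% and 3.3%. Cortical TAL-α lay below the 41.6 CPM of uncalled cortical barcodes, and cortical TAL-α nuclei include those with 1 or 2 Nos1 plus Pappa2 counts. Among all cortical nuclei with none, Bmp3 was 6.37 CPM.

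Sfrp1, which binds WNT ligands outside the cell, was high in MD as well, and in TAL-γ it differed more between libraries than any other member tested there. Its level in cortex was 616 CPM in TAL-α (4910 counts, 599 to 634), 701 in TAL-β (3668 counts, 679 to 725), 344 in TAL-γ (284 counts, 305 to 387) and 1004 in MD (1674 counts, 956 to 1053). In medulla it was 153 CPM in TAL-α (1436 counts, 145 to 161), 372 in TAL-β (654 counts, 344 to 402), 19.5 in TAL-γ (177 counts, 16.8 to 22.6) and 1018 in MD (169 counts, 870.3 to 1184). The order MD, TAL-β, TAL-α, TAL-γ held in both libraries with no overlap of neighbouring intervals. Classes also differed in position along the cortex to medulla score given below, and at some near scores the order was reversed. In medulla the cortex-most TAL-α bin (median score 0.107) held 397 CPM against 312 in the middle TAL-β bin (-0.322). The cortex-most TAL-γ bin (-3.32) held 50.3 against 29.3 in the middle TAL-α bin (-3). The part of position in the order and in the ratios was not tested. The MD level was equal within counting error at a ratio of 1.01 (0.860 to 1.19), whereas the cortical level exceeded the medullary one 4.03-fold (3.80 to 4.27) in TAL-α, 1.88-fold (1.73 to 2.05) in TAL-β and 17.6-fold (14.5 to 21.4) in TAL-γ. Here too the depth of the MD nuclei in the medulla library is not given, and a steady MD level does not separate class from depth. As given for Fgf9, the TAL-γ groups of the libraries came from unlike clusters, and the part of this was not tested. MD nuclei exceeded TAL-α 1.63-fold (1.54 to 1.72) in the cortex library and 6.65-fold (5.64 to 7.80) in the medulla library. Nuclei with a count made up 83.5% and 79.5% of MD (thinned 63.7% and 60.3%) and 2.85% of medullary TAL-γ (thinned 1.30%). In proximal tubule barcodes they were 4.65% in cortex and 0 of 91 in medulla. Uncalled barcodes held 752 CPM in cortex, above cortical TAL-α, and 127 in medulla.

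The 250 bases before the starts of Bmp3 (chr5:99002018-99002267, plus strand) and Sfrp1 (chr8:23901013-23901262, plus strand) are shown together because both genes were highest in MD. Both are poorer in GC than most promoters, 43.6% and 44%. Capitals mark a TATA box (TATAAA on either strand, in 11.9% of promoters), which Bmp3 held far upstream in this window. None of the other motifs searched was in either window.
Bmp3: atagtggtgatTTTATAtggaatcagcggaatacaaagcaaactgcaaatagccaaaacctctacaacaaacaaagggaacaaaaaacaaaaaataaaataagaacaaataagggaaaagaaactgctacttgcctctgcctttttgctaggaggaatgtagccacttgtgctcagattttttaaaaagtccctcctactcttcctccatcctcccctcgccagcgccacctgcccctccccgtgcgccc
Sfrp1: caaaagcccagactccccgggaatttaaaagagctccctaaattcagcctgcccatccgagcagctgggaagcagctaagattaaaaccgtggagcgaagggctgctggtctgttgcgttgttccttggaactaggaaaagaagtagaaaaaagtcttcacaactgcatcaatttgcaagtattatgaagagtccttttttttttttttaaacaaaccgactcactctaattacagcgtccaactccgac
Bmp3 lies on chromosome 5 (99002268 to 99032255) and Sfrp1 on chromosome 8 (23901263 to 23939648), both on the plus strand.

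**Figure D3:**
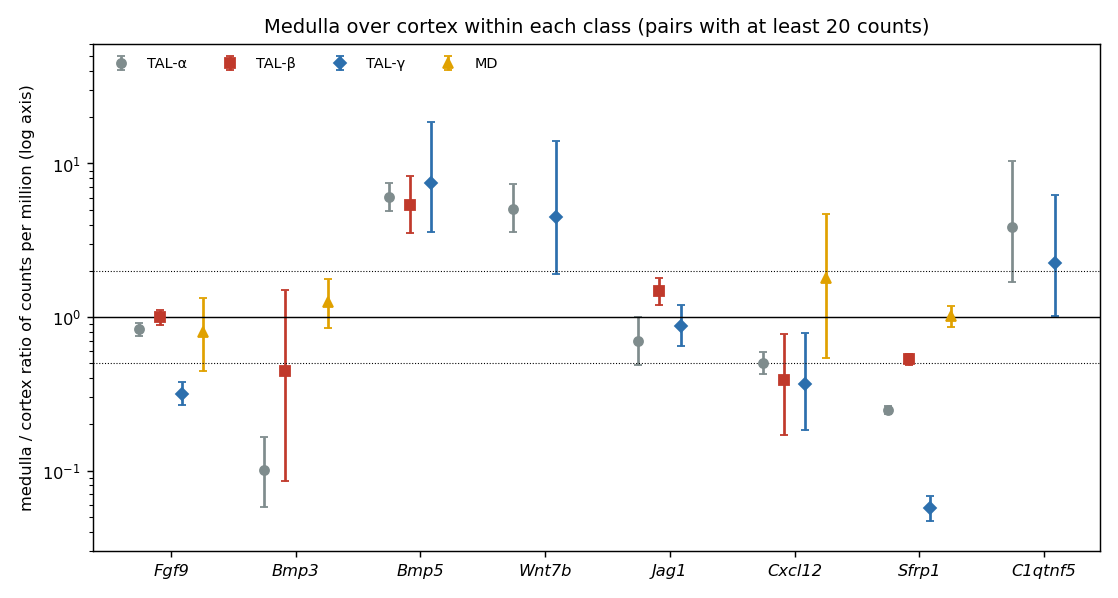
Medulla over cortex ratio of each gene's CPM (y axis, log scale) within TAL-α, TAL-β, TAL-γ and MD (markers by class), for pairs with at least 20 counts, with 95% conditional binomial intervals as bars. The solid line marks a ratio of 1 and the dotted lines 2 and 0.5. Bmp5 lies at 6.05 in TAL-α and 7.47 in TAL-γ, and Sfrp1 at 0.0568 in TAL-γ and 1.01 in MD.

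Bmp5 was higher in the medulla library in TAL-α, TAL-β and TAL-γ. In cortex it stood at 13.2 CPM in TAL-α (105 counts, 10.8 to 16.0), 6.88 in TAL-β (36 counts, 4.82 to 9.53), 8.48 in TAL-γ (7 counts, 3.41 to 17.5) and 4.20 in MD (7 counts, 1.69 to 8.65). In medulla it stood at 79.8 CPM in TAL-α (748 counts, 74.1 to 85.7), 37.0 in TAL-β (65 counts, 28.6 to 47.2), 63.4 in TAL-γ (574 counts, 58.3 to 68.8) and 18.1 in MD (3 counts, 3.73 to 52.8), the last from 1 nucleus and with an interval that overlaps the cortical one. The medulla to cortex ratio was 6.05 (4.93 to 7.49) in TAL-α, 5.37 (3.52 to 8.31) in TAL-β and 7.47 (3.60 to 18.7) in TAL-γ. Between libraries 5 of 8 members passed 2-fold in TAL-α (all genes 13.0%), 3 of 6 in TAL-β (all genes 13.3%) and 6 of 7 in TAL-γ (all genes 19.9%). The higher ones were Bmp5, Wnt7b and C1qtnf5 in TAL-α and TAL-γ and Bmp5 in TAL-β, and the median of all genes was -0.10, -0.09 and -0.05 on the log2 scale. Every ratio between the TAL-γ groups of the libraries compares nuclei from unlike clusters, as given for Fgf9. Within medulla TAL-β lay below TAL-α, at 0.464 times (0.354 to 0.598), and TAL-γ at 0.795 times (0.712 to 0.887). A count was found in 12.6%, 8.06% and 10.1% of these nuclei (thinned 6.28%, 3.33% and 4.89%), against 2.20% of proximal tubule barcodes. Uncalled medullary barcodes held 52.3 CPM. In cortex the shares of 1.07% to 2.76% were not distinguishable from the 1.16% of proximal tubule barcodes, whose interval reaches 6.31%. The antisense transcript Gm26903, which overlaps the end of Bmp5, was 4.05 CPM in medullary TAL-α and 3.20 in TAL-γ. Whether counting used strand is not given in the sources used here.

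Wnt7b, a ligand that the developing collecting duct also makes, shared the regional direction with Bmp5 but was low in TAL-β. In cortex it stood at 4.90 CPM in TAL-α (39 counts, 3.48 to 6.69), 1.15 in TAL-β (6 counts, 0.421 to 2.50), 6.06 in TAL-γ (5 counts, 1.97 to 14.1) and 0.600 in MD (1 count, 0.0152 to 3.34). In medulla it stood at 24.8 CPM in TAL-α (233 counts, 21.8 to 28.2), 3.42 in TAL-β (6 counts, 1.25 to 7.43) and 27.2 in TAL-γ (246 counts, 23.9 to 30.8), and none of the 78 MD nuclei held a count. TAL-β of medulla held 0.137 times (0.0499 to 0.304) the TAL-α level, and TAL-γ exceeded TAL-β 7.95-fold (3.60 to 21.9), while TAL-γ and TAL-α differed by less than counting error at a ratio of 1.09 (0.910 to 1.31). The medulla to cortex ratio was 5.07 (3.60 to 7.32) in TAL-α and 4.48 (1.89 to 13.9) in TAL-γ, the latter resting on 5 cortical counts. A Wnt7b count was found in 5.59% of medullary TAL-α and 6.44% of TAL-γ nuclei (thinned 2.69% and 2.91%) and in 0 of 91 proximal tubule barcodes, which allows up to 3.3%. Uncalled medullary barcodes held 24.7 CPM, close to both classes. The transcript AU022754 runs antisense across the Wnt7b start, and its levels went the same way, 14.7 CPM in medullary TAL-α, 1.71 in TAL-β and 21.2 in TAL-γ against 3.14 in cortical TAL-α. Without stranded counting, reads of the pair cannot be told apart where they overlap.

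The window of Bmp5 (chr9:75682388-75682637, plus strand) is shown because Bmp5 was higher in medulla in all 3 TAL classes. It is poor in GC, 42%, with 4 CpG, and none of the motifs searched was in it, so it holds no capitals.
Bmp5: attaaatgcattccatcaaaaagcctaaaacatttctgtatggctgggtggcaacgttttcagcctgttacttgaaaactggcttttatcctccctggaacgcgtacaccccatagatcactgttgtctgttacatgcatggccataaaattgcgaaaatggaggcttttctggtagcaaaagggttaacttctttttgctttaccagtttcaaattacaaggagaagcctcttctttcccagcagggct
Bmp5 lies on chromosome 9 (75682638 to 75807592, plus strand) and Wnt7b on chromosome 15 (85419638 to 85466674, minus strand).

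C1qtnf5 was counted mainly in medullary TAL-γ. Its level in cortex was 0.879 CPM in TAL-α (7 counts), 0.765 in TAL-β (4), 7.27 in TAL-γ (6) and 0.600 in MD (1). In medulla it was 3.41 CPM in TAL-α (32 counts, 2.33 to 4.82), 4.55 in TAL-β (8 counts, 1.97 to 8.97) and 16.3 in TAL-γ (148 counts, 13.8 to 19.2), and none of the 78 MD nuclei held a count. Medullary TAL-γ exceeded TAL-α 4.79-fold (3.25 to 7.26) and TAL-β 3.59-fold (1.77 to 8.47). Only 3.81% of TAL-γ nuclei held a count (3.21% to 4.50%, thinned 1.33%), against 0 of 91 proximal tubule barcodes. The limit of 3 counts allows up to 3.3% of those barcodes, which lies inside that interval, so this share is not distinguished from background by them. Of medullary TAL-α nuclei, 0.821% held a count (0.558% to 1.16%). Uncalled medullary barcodes held 15.9 CPM. C1qtnf5 (chromosome 9, 44018524 to 44020484, plus strand) lies wholly inside Mfrp on the same strand and overlaps Rnf26 and Gm49380 on the other, so its counts depend on how shared reads were assigned. Mfrp was listed at 0.883 CPM in medullary TAL-γ and Rnf26 at 2.98.

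Cxcl12 was highest in TAL-α of the cortex library. In cortex it stood at 50 CPM in TAL-α (398 counts, 45.2 to 55.1), 13.2 in TAL-β (69 counts, 10.3 to 16.7), 13.3 in TAL-γ (11 counts, 6.66 to 23.9) and 16.8 in MD (28 counts, 11.2 to 24.3). In medulla it stood at 25.2 CPM in TAL-α (236 counts, 22.1 to 28.6), 5.12 in TAL-β (9 counts, 2.34 to 9.73), 4.86 in TAL-γ (44 counts, 3.53 to 6.52) and 30.1 in MD (5 counts, 9.78 to 70.3). TAL-β held 0.264 times (0.201 to 0.342) the TAL-α level in cortex and 0.204 times (0.0920 to 0.393) in medulla, and TAL-γ held 0.267 times (0.132 to 0.483) and 0.193 times (0.137 to 0.267). The medullary MD value rests on 3 nuclei, and its ratio to TAL-α was 1.20 (0.385 to 2.83). Cortical TAL-α exceeded medullary 1.99-fold (1.69 to 2.34). Proximal tubule barcodes held a Cxcl12 count in 9.30% of cases in cortex and 8.79% in medulla, and thinned to 1000 counts in 1.16% and 2.20%. Of the TAL groups, cortical TAL-α alone was above these on both measures, 11.2% and thinned 4.92%. The proximal tubule barcodes are few, and the intervals of their cortical shares reach past both values. Cortical TAL-α is therefore not distinguished from background by its shares. TAL-β and TAL-γ were below on both (1.07% to 4.03%, thinned 0.175% to 0.871%) and are read as background. Medullary TAL-α (5.24%, thinned 2.34%) and MD of both libraries (3.52% and 3.85%, thinned 1.38% and 2.56%) were below before thinning and slightly above after it, and are not distinguished from background by their shares. Cxcl12 lies on chromosome 6 (117144945 to 117158328, plus strand).

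Within a class the members also varied along the cortex to medulla axis. Nuclei of each class and library were ordered by a score of 12 cortical and 13 medullary genes, which the study chose on these libraries, with Sfrp1 left out, and cut into 3 equal bins. From the medulla-most to the cortex-most bin Sfrp1 stood at 3.09, 29.3 and 397 CPM in medullary TAL-α, 353, 659 and 917 in cortical TAL-α and 24.3, 312 and 838 in medullary TAL-β. In cortical TAL-β Sfrp1 stood at 399, 777 and 1136. The last bin (1079 to 1197) lay above cortical MD as a whole (1004, 956 to 1053), whose own cortex-most bin stood at 1257. Sfrp1 thus also differed along the score inside each library. Wnt7b ran the other way, 35.8, 25.7 and 14.6 in medullary TAL-α, and so did C1qtnf5 in medullary TAL-γ, 22.7, 21.2 and 6.21. Bmp5 did not follow a single direction. It stood at 71.9, 111 and 58.0 in medullary TAL-α, 33.8, 68.0 and 86.4 in medullary TAL-γ and 53.4, 40.0 and 14.8 in medullary TAL-β. In medullary TAL-γ the highest Bmp5 bin was thus the cortex-most, while in medullary TAL-β and cortical TAL-α (24.6, 9.59 and 2.17) it was the medulla-most. Cxcl12 rose toward the cortical end of medullary TAL-α, 4.47, 14.2 and 53.2, and stood at 34.7, 56.4 and 62.9 in cortical TAL-α. In cortical MD nuclei Bmp3 was 108, 208 and 221. Fgf9 was 203, 249 and 287 in cortical TAL-β and Jag1 40.4, 61.0 and 76.4, whereas in medullary TAL-β Jag1 was 93.8, 88.4 and 61.2. A nucleus's score also takes up free RNA and depth, whose part was not tested.

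**Figure D4:**
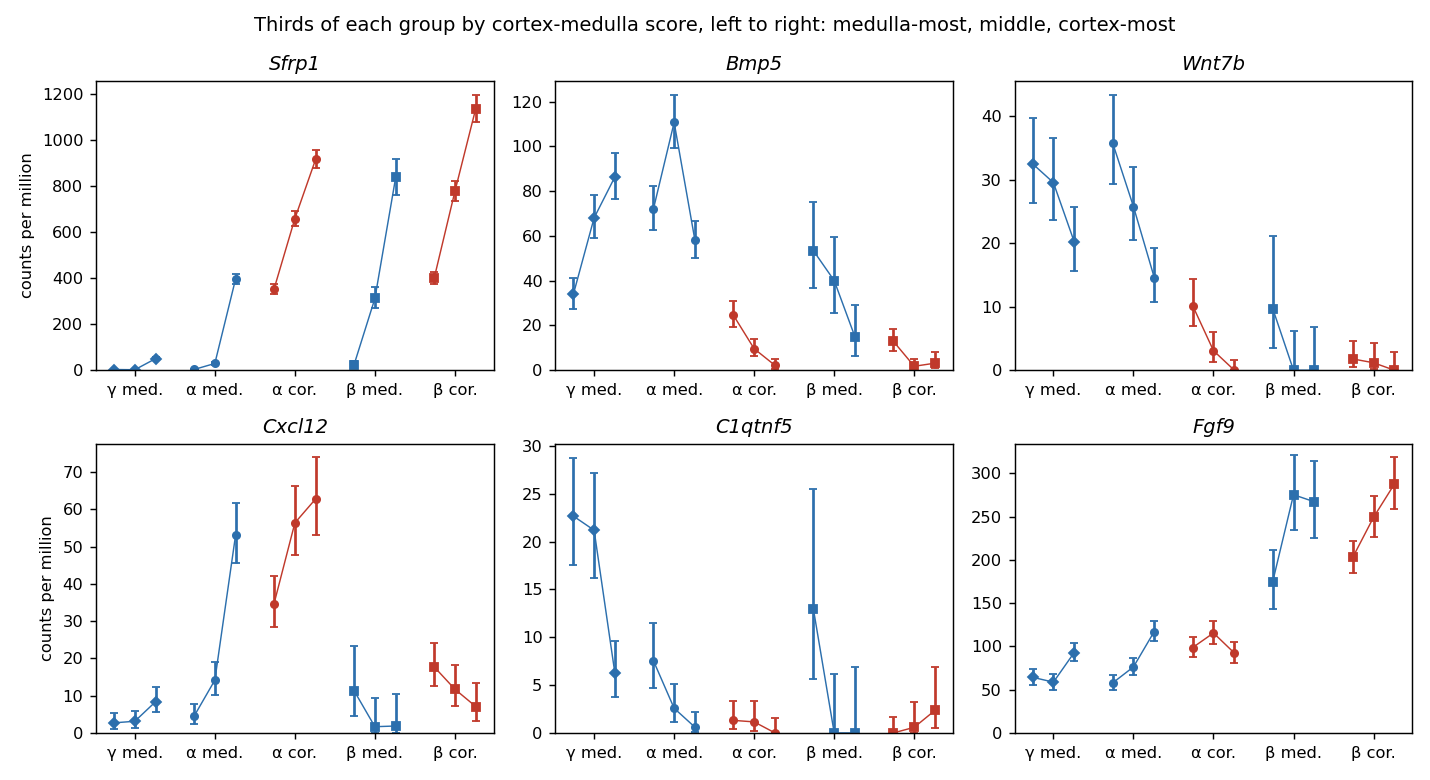
Level in CPM (y axis) of Sfrp1, Bmp5, Wnt7b, Cxcl12, C1qtnf5 and Fgf9 in 3 equal bins of nuclei, from the medulla-most to the cortex-most score within each class and library (x axis, red cortex, blue medulla), with 95% Poisson intervals as bars. Sfrp1 climbs toward the cortical end in TAL-α and TAL-β of both libraries, and Bmp5 is highest in the middle bin of medullary TAL-α.

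The cluster numbers deposited with each library, 13 apiece, cut the same nuclei without the gates, although they come from the same counts and may have used the members. Bmp5 ranged over the large medullary clusters from 28.1 CPM in cluster 4 and 34.1 in cluster 5 to 133 in cluster 7 and 141 in cluster 3. Clusters 3 and 4 were mainly TAL-α (76.6% and 64.2%) and clusters 5 and 7 mainly TAL-γ (95.9% and 78.5%), so high and low Bmp5 occurred inside both classes. Wnt7b spanned 23.5 to 38.9 in the same 4 clusters. C1qtnf5 was 38.9 in cluster 5 and 19.2 in cluster 7, but 8.56 in cluster 2, which held the most TAL-γ nuclei (75.9% of its 1326), against 4.66 and 6.92 in clusters 3 and 4. Jag1 was 72.1, 87.7 and 41.2 in clusters 5, 7 and 2, 79.5 in cluster 6, which was 59.0% TAL-β, and 0.586 in cortical cluster 1, which was 98.8% TAL-α. Cortical cluster 8, 92.7% TAL-α, had the highest Cxcl12 of any cluster, 125, together with 215 of Fgf9 and 1178 of Sfrp1. Bmp3 was 61.8 in this cluster, of which 5.45% were MD nuclei. The clusters richest in MD nuclei, cortical 3 (75.1%) and medullary 12 (71.7%), held 243 and 192 CPM of Bmp3 and 1234 and 1282 of Sfrp1. Sfrp1 was as high, 1291, in cortical cluster 4, which was 75.5% TAL-β and 0% MD, and where Bmp3 was 5.75.

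Members that share a class were then counted in single nuclei. In cortical TAL-β, for Fgf9 and Jag1, 111 nuclei held both, where the product of their shares gives 109. In cortical MD, for Bmp3 and Sfrp1, 172 nuclei held both, where the product of their shares gives 162. For both pairs the product lay inside the interval of the observed share. Larger departures were seen in medullary TAL-α. For Cxcl12 and Sfrp1 88 nuclei held both, where the product of their shares gives 32.4, and for Bmp5 and Sfrp1 39 nuclei held both, where the product of their shares gives 77.9, outside the intervals on opposite sides. Nuclei with more counts hold more of any pair. In medullary TAL-α Cxcl12 and Sfrp1 also rose toward the cortical end of the score, and Bmp5 did not. Neither depth nor position along the score was separated here. None of the 8 members was counted in 23.9% of TAL-α, 12.6% of TAL-β, 25.8% of TAL-γ and 9.95% of MD nuclei in cortex, and in 54.7%, 27.5%, 59.8% and 15.4% in medulla. At least 3 members were counted in 0.875% of medullary TAL-γ to 8.37% of cortical TAL-β nuclei.

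Receptors, relays and inhibitors of the same pathways were read from lists that leave the members out. Each count is of the genes with at least 20 counts in the pair, and the percentage beside it is the share of all such genes past 2-fold in either direction. Of the FGF list, the genes past 2-fold above and below TAL-α numbered 3 and 1 of 19 in cortex (5.00% of all genes) and 2 and 0 of 15 in medulla (8.25% of all genes) for TAL-β, 1 and 1 of 16 in cortex (10.6% of all genes) and 0 and 2 of 17 in medulla (4.33% of all genes) for TAL-γ and 5 and 1 of 16 in cortex (13.2% of all genes) and 4 and 2 of 14 in medulla (26.1% of all genes) for MD. The median log2 ratio of the list in cortex was 0.33 for TAL-β, 0.38 for TAL-γ and 0.47 for MD, against 0.02, 0.00 and 0.04 over all genes. In medulla it was 0.38, -0.18 and 0.10 in the same order, against -0.02, 0.00 and 0.00. Fgfr2, a receptor for epithelial FGF signals, was 283 CPM in TAL-α and 190.5 in TAL-β of cortex, and 276 and 220.3 in medulla. In MD Fgfr2 was 164 in cortex, short of 2-fold below TAL-α, and 133 in medulla, past it. Fgf1, another ligand, was 463 and 513 in TAL-α of cortex and medulla against 202 and 133 in MD. Kl, the FGF23 co-receptor Klotho, was 90.2 in medullary TAL-γ against 213 in TAL-α. Spred2, an inhibitor of the ERK relay, was 270.5 in cortical MD against 111 in TAL-α. Etv4 and Etv5, transcription factors known to respond to FGF, were picked after their values were seen. Etv5 was 63.6 in MD against 8.79 in TAL-α of cortex and 66.3 against 3.41 in medulla, and Etv4 was 42 against 2.64 in cortex. In TAL-β, Etv5 was 12.0 in cortex, short of 2-fold above TAL-α, and 7.40 in medulla, past it. Dusp6, an ERK phosphatase also picked after its values were seen, was 10.9 in cortical TAL-β against 4.27 in TAL-α. In medulla it was 15.9 against 9.49, short of 2-fold. Spry1, an inhibitor picked likewise, was 5.12 against 1.92 in medulla and, short of 2-fold, 5.35 against 3.89 in cortex. Both stood at 12.0 in cortical MD, above cortical TAL-β, and at 0 (Dusp6) and 6.02 (Spry1) in medullary MD.

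Of the BMP list, the genes past 2-fold above and below TAL-α numbered 1 and 0 of 26 in cortex (5.00% of all genes) and 1 and 2 of 24 in medulla (8.25% of all genes) for TAL-β, 1 and 2 of 23 in cortex (10.6% of all genes) and 1 and 2 of 26 in medulla (4.33% of all genes) for TAL-γ and 4 and 1 of 24 in cortex (13.2% of all genes) and 5 and 4 of 24 in medulla (26.1% of all genes) for MD. The median for MD was 0.08 in cortex and -0.05 in medulla, against 0.04 and 0.00 over all genes. Sostdc1, a secreted BMP and WNT inhibitor, was 211 CPM in TAL-β against 116 in TAL-α of cortex and 42.2 in medullary MD. Smad6, an inhibitor inside the cell, was 82.2 in cortical and 30.1 in medullary MD against 159 and 135 in TAL-α, and Smad1, the signal carrier, was 99.0 and 145 against 70.2 and 61.5. The ligand Bmp6 ran opposite to Bmp5 between libraries, 79.0 in cortical against 14.6 in medullary TAL-α. Proximal tubule barcodes held 339.7 and 181 CPM of Bmp6 and uncalled barcodes 65.7 and 18.2, and the proximal tubule list in TAL-α went the same way, 2212 against 330.1. The part of proximal tubule RNA in this was not tested. Bmpr1b, Bmper and Id3 were picked after their values were seen. The receptor Bmpr1b was 119.9 in cortical and 175 in medullary MD against 16.7 and 7.04 in TAL-α. The secreted regulator Bmper was 55.8 and 72.3 against 7.03 and 3.09, and the BMP-responsive gene Id3 was 43.8 and 48.2 against 11.7 and 2.67.

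Of the WNT list, the genes past 2-fold above and below TAL-α numbered 3 and 1 of 24 in cortex (5.00% of all genes) and 4 and 2 of 17 in medulla (8.25% of all genes) for TAL-β, 3 and 0 of 20 in cortex (10.6% of all genes) and 1 and 0 of 21 in medulla (4.33% of all genes) for TAL-γ and 1 and 1 of 21 in cortex (13.2% of all genes) and 3 and 2 of 16 in medulla (26.1% of all genes) for MD. Lrp6, a WNT co-receptor, was 244 CPM in TAL-α and 148 in TAL-β of cortex and 297 and 142 in medulla, the same order of these classes as Wnt7b. The likeness did not extend to MD, where Wnt7b had 1 count in cortex and none in medulla. Lrp6 was highest there, 288 in cortex and 385 in medulla, and it was 185 and 282 in TAL-γ. Ror2, an alternative WNT receptor, had the opposite order of TAL-α and TAL-β, 37.8 and 81.1 in cortex and 36.4 and 100.2 in medulla. The receptor Fzd4 was 48.0 and 36.1 in MD of cortex and medulla against 93.5 and 139 in TAL-α. Rnf43, which removes WNT receptors, was 71.4 and 30.1 in MD against 70.3 and 87.0. Of the Notch list, the genes past 2-fold above and below TAL-α numbered 1 and 2 of 14 in cortex (5.00% of all genes) and 0 and 3 of 12 in medulla (8.25% of all genes) for TAL-β, 0 and 2 of 13 in cortex (10.6% of all genes) and 0 and 2 of 13 in medulla (4.33% of all genes) for TAL-γ and 2 and 3 of 13 in cortex (13.2% of all genes) and 3 and 1 of 12 in medulla (26.1% of all genes) for MD. Hes1, a transcription factor that Notch commonly induces, was lower where Jag1 was higher, 239 CPM in TAL-α, 118 in TAL-β and 141 in TAL-γ of cortex and 288, 136 and 130.2 in medulla, but MD nuclei, with little Jag1, had the lowest Hes1, 82.8 and 60.2. The receptor Notch1 was 49.8 in cortical and 30.1 in medullary MD against 13.3 and 6.61 in TAL-α. The coactivators Maml2 and Maml3 stood at 2003 and 1290.0 in cortical MD against 1389.7 and 634 in TAL-α.

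Of the CXCL12 list, the genes past 2-fold above and below TAL-α numbered 0 and 0 of 4 in cortex (5.00% of all genes) and 0 and 0 of 3 in medulla (8.25% of all genes) for TAL-β, 1 and 2 of 4 in cortex (10.6% of all genes) and 0 and 1 of 4 in medulla (4.33% of all genes) for TAL-γ and 0 and 0 of 4 in cortex (13.2% of all genes) and 1 and 0 of 3 in medulla (26.1% of all genes) for MD. Cx3cl1, a membrane-anchored chemokine, was 29.1 CPM in cortical and 10.7 in medullary TAL-γ against 58.8 and 25.2 in TAL-α, and it was 106 and 114 in MD. The chemokine Cxcl16 was 13.2 in cortical TAL-α against 6.06 in TAL-γ, and Cxcl10 was 21.8 in cortical TAL-γ against 2.76 in TAL-α. Of the C1q/TNF family, the genes past 2-fold above and below TAL-α numbered 0 and 0 of 5 in cortex (5.00% of all genes) and 0 and 0 of 3 in medulla (8.25% of all genes) for TAL-β, 0 and 1 of 5 in cortex (10.6% of all genes) and 0 and 0 of 5 in medulla (4.33% of all genes) for TAL-γ and 0 and 1 of 5 in cortex (13.2% of all genes) and 0 and 0 of 2 in medulla (26.1% of all genes) for MD. In cortex C1qtnf9 was 2.42 CPM in TAL-γ and C1qtnf7 3.60 in MD, against 9.54 and 7.91 in TAL-α. In medulla C1qtnf9 was 6.07 in TAL-γ against 6.18 in TAL-α, and C1qtnf7 was 0.994 against 1.81 in the same classes.

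**Figure D5:**
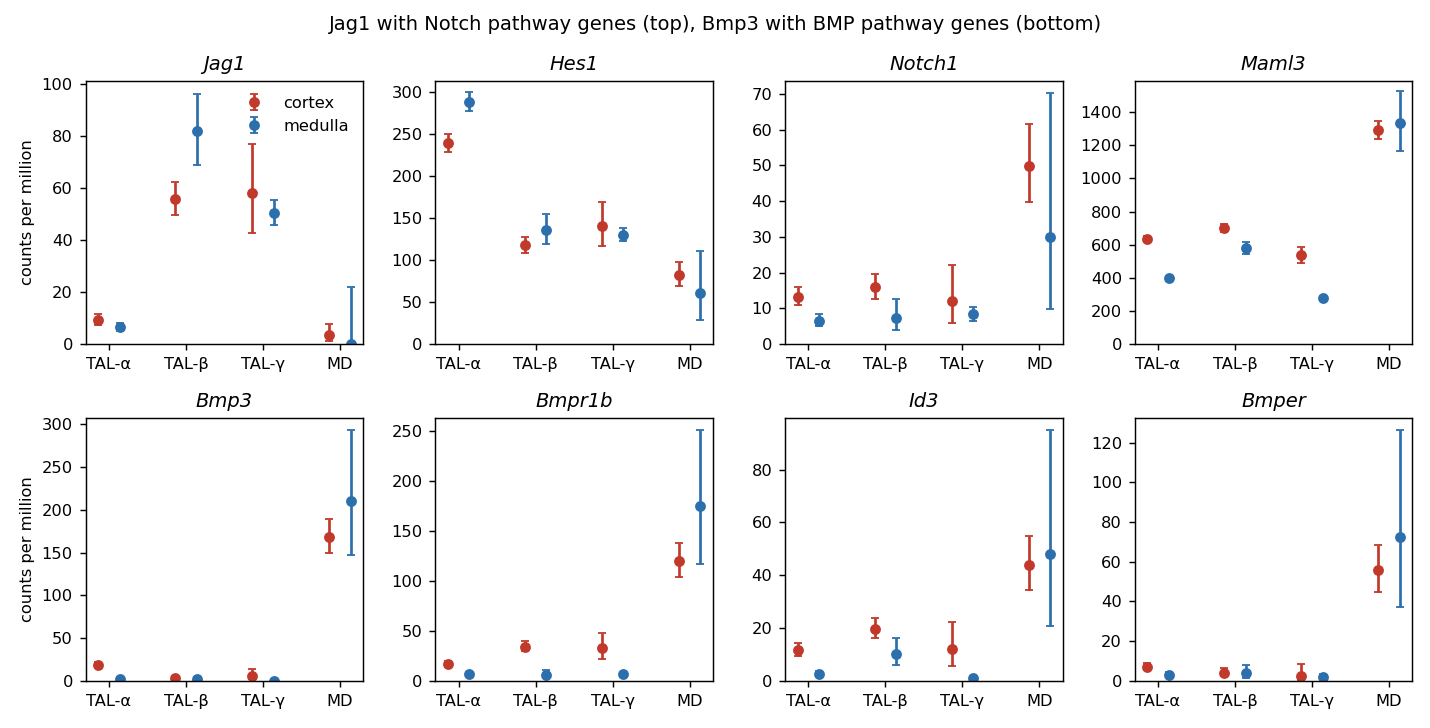
Level in CPM (y axis) of Jag1, Hes1, Notch1 and Maml3 (top) and of Bmp3, Bmpr1b, Id3 and Bmper (bottom) in each TAL class (x axis), with cortex in red, medulla in blue and 95% Poisson intervals as bars. Hes1 is 239 and 288 in TAL-α and lower in the other classes, and Bmpr1b stands at 119.9 and 175 in MD.

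Genes whose levels ran most nearly parallel to each member were named over the 8 groups of class and library, by Pearson's r of log2(CPM + 1) among 12764 genes with at least 100 counts in TAL nuclei. The 8 groups share 2 libraries and the best of so many candidates is high in any case, so r is a description. For Fgf9 they were Cys1 (0.98), Hydin (0.96), Tspan18 (0.96), and for Jag1 Tinag (0.98), Rarb (0.97), Rbfox1 (0.97). For Bmp3 they were Hibadh (1.00), Mapt (1.00), Ckap4 (0.99), and for Sfrp1 Ier3 (1.00), Cd9 (0.99), Pde10a (0.99). For Bmp5 they were Efhd1 (0.97), Hmgn3 (0.97), Wasl (0.97), and for Wnt7b Plgrkt (0.99), Aldoc (0.98), Rgcc (0.98). For Cxcl12 they were Slc16a5 (0.95), Chst8 (0.94), Slc35f1 (0.93), and for C1qtnf5 Dab1 (0.97), 4732491K20Rik (0.96), Actr1a (0.96). No gate gene was among them. Pearson's r takes no account of the size of a change. Hibadh spanned 234 to 313 CPM over the 8 groups, where Bmp3 spanned 0.331 to 211.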

How the data were processed

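The deposited values are whole-number transcript counts per gene and barcode, which the authors obtained from PIPseq libraries of nuclear RNA aligned to GRCm39 with PIPseeker, before DoubletFinder, SoupX or any normalization was applied. All barcodes and the barcodes called as nuclei were deposited for each of the 2 libraries, and cluster numbers were used as an alternative only. The release of the annotation and the use of strand in counting are not given in the sources used here.

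The work was done in Python 3.11.15 (pandas 2.3.3, scipy 1.17.1, numpy 2.4.6, and matplotlib 3.10.9 for plots). Levels are counts summed over a class and library, per 1000000. Intervals (95%) are exact Poisson for levels, conditional binomial for ratios and Clopper-Pearson for shares. Where nothing was counted, the limit is 3 counts. With 1 library per region nuclei are not replicates, so no test was made. Shares were repeated after thinning each nucleus to 1000 counts (seed 1), which left out 18 TAL-α and 5 TAL-γ nuclei of medulla. Doublets stayed in and were removed with Scrublet in scanpy 1.11.5 as an alternative. The ratios were tested on simulated data.

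The members, the gates and the gene lists were chosen with earlier results of these data known. All 8 members are named. From each pathway list at most 4 genes past 2-fold against TAL-α in any class were named in order of total counts, and for each member the 3 genes with the highest correlation. Etv4, Etv5, Dusp6, Spry1, Bmpr1b, Bmper and Id3 were added after their values were seen. So were the marker genes Cldn16, Pth1r, Col5a2, Nrxn3, Kcnj10, Rbfox1, Ano4 and Prox1. Sequences and gene positions came from GRCm39 and GENCODE M39. The promoter window of Wnt7b is not reported here.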

Additional observations from a re-analysis of the deposited data

Results flagged for a closer look

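Fgf9 went in opposite directions relative to TAL-α in the nuclei that passed the TAL-γ gate in each library. Its level in TAL-γ was 2.24 times that in TAL-α in cortex and 0.853 times in medulla, with intervals of 1.90 to 2.63 and 0.768 to 0.947. With 1 library per region the difference between these ratios was not tested. Cortical TAL-γ nuclei also held more of the TAL-β list than medullary ones (1961 against 406 CPM), and so did cortical TAL-α nuclei (1400 against 416). The part of the TAL-β list in the result was not tested beyond the following values. Among nuclei with Tmem52b at 0, a choice made after seeing the data, the ratios were 2.03 and 0.812. Of the TAL-β list, Cldn16 was then 1.59 and 0.803 times TAL-α and Pth1r 1.28 and 0.400. Col5a2 was 1.46 and 0.311, Nrxn3 1.06 and 0.607 and Kcnj10 13.6 and 10.2. Cadps2, the other gene of that list, was not read in this split. Among nuclei with 1 Tmem52b count (119 and 277) the Fgf9 ratios were 2.65 (2.15 to 3.25) and 1.62 (1.31 to 1.99), both above TAL-α. Of the 248 cortical TAL-γ nuclei 132 lay in a deposited cluster that was 71.3% TAL-β. Among nuclei with fewer than 5 counts of proximal tubule genes the Fgf9 ratios were 2.69 and 0.860, and with at least 4 counts of Tmem207 plus Gpc5 they were 2.09 and 0.850. The classes also differed in position along the cortex to medulla score. In medulla Fgf9 was 64.3, 58.7 and 92.9 CPM in TAL-γ bins at median scores of -6.09, -4.95 and -3.32. In medullary TAL-α it was 57.8, 76.3 and 117 at -5.43, -3 and 0.107. The part of position in the ratios was not tested.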

How the results depend on the processing

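Each member's level in a chosen class against the rest of that library was recomputed under 15 alternatives. The class was that of the member's highest CPM in either library, read in the library with more nuclei of that class. It did not always lead there. Jag1 was 55.8 CPM in cortical TAL-β and 58.2 in cortical TAL-γ, and Cxcl12 was 25.2 in medullary TAL-α and 30.1 in medullary MD. All 120 values kept their direction, and 19 moved beyond the counting interval. On the log2 scale Fgf9 in cortical TAL-β was 1.05. It was 1.17 with Tmem52b of at least 1 or with TAL-α nuclei at 0 for every gate gene, 0.68 with at least 4, 1.20 without nuclei holding proximal tubule counts, 1.18 as a mean per nucleus and 1.39 by deposited cluster. Bmp3 in cortical MD was 3.74, and 4.18 or 3.31 with Nos1 plus Pappa2 of at least 2 or 5, 4.78 with TAL-α at 0 for the gate genes and 5.01 by cluster. Jag1 in cortical TAL-β was 2.19, and 3.07 or 1.63 with Tmem52b of at least 1 or 4, 2.66 with TAL-α at 0, 2.51 without proximal tubule counts and 3.62 by cluster. Cxcl12 in medullary TAL-α was 2.25, and 2.72 without predicted doublets and 3.06 after thinning. Sfrp1 in cortical MD was 0.67, and 0.77 without doublets and 0.88 by cluster. Bmp5, Wnt7b and C1qtnf5 stayed within 0.35 to 0.51, 0.16 to 0.48 and 1.83 to 2.46.

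The number of genes past 2-fold depended on the count minimum. With at least 20 or 50 counts in the pair, or 1 in each class, it was in that order 739, 387 and 2723 for TAL-β over TAL-α in cortex, 1116, 541 and 3246 in medulla, 1446, 680 and 3200 for TAL-γ over TAL-α in cortex, 643, 307 and 2820 in medulla, 1837, 1116 and 4104 for MD over TAL-α in cortex, 3419, 2626 and 4491 in medulla, 1405, 739 and 3570 for TAL-γ over TAL-β in medulla, and 1975, 1313 and 4425, 1724, 1021 and 3747, 2640, 1663 and 5125, and 1510, 670 and 2988 between libraries in TAL-α, TAL-β, TAL-γ and MD. Scrublet removed 338 cortical nuclei. In medulla its automatic threshold called 0.0246%, so the highest scores were removed, 485 nuclei. No paired analysis was possible because each region has 1 library. The 78 medullary MD nuclei limit every value there: 3 counts in them equal 18.1 CPM.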
